A study of Mus musculus with 4 samples.

Results

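The genes described here are 10 parts of the transforming growth factor beta (TGF-beta) system: the ligands Tgfb1, Tgfb2 and Tgfb3, the receptors Tgfbr1, Tgfbr2 and Tgfbr3, and the latent TGF-beta binding proteins Ltbp1, Ltbp2, Ltbp3 and Ltbp4. They were taken by name, all 10 were listed in each of the 3 deposited count files, and they are 10 of the 18112 genes common to those files. Each was followed in 3 classes of cells of the mouse aorta: smooth muscle (at least 5 UMIs of Myh11 and 0 of Pdgfra), fibroblasts (at least 1 UMI of Pdgfra and at most 2 of Myh11) and macrophages (at least 10 UMIs of C1qa, C1qb and Lyz2 together and under 5 of Myh11). A UMI, or unique molecular identifier, marks 1 captured transcript.

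The study compared the response to angiotensin II (AngII), a vessel-constricting peptide, in ascending aortic cells that derive from the second heart field (SHF) and in those of other origins. All mice were male and of the strain Mef2c-mTmG, in which a membrane reporter changes colour in a traced lineage, and live cells were sorted on that lineage before droplet capture. Each group had 1 library: SHF at baseline, SHF after 3 days of AngII infusion, and CNC (not spelled out in the labels) after 3 days of AngII infusion. A CNC sample at baseline is named in the labels and was not analysed here. The labels give no age, no number of mice pooled in a library and no dose, and name the driver of the lineage mark only as Mef2c. The difference between AngII and baseline was therefore read in SHF cells alone, and the lineages were compared under AngII alone.

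TGF-beta is secreted in a latent form: the mature ligand stays bound to its own propeptide, and that complex is linked in most tissues to a latent TGF-beta binding protein (LTBP), which ties it to fibrillin and other matrix fibres. Once freed by integrins, proteases or thrombospondin, the ligand binds TGFBR2, which recruits and phosphorylates TGFBR1, and SMAD2 and SMAD3 carry the signal to the nucleus; TGFBR3 (betaglycan) is a co-receptor that presents ligand, TGF-beta 2 above all. In the ascending aorta the system is known for aneurysm: mutations of genes for the receptors, for SMAD3 and for the ligands TGF-beta 2 and 3 cause hereditary thoracic aortic disease in people, and LTBP4 is needed to assemble elastic fibres.

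The sequence before the start of 4 of these genes is shown because they carried the main contrasts: Tgfb1 and Tgfb2, which divided between macrophages and smooth muscle, and Ltbp2 and Ltbp4, which went opposite ways between the AngII and baseline libraries. Sequences are from RefSeq on GRCm38.p6 and run 5′ to 3′ in the gene's direction. Letters in capitals mark matches on either strand to CAGAC (a SMAD-binding element, read GTCTG on the other strand) or to the TATA box letters TATAAA. An AP-1 site (TGANTCA) and, by name, the CArG box of serum response factor were also searched on both strands, and no match printed overlaps another. For Ltbp2 and Ltbp4 the run stops where the first exon of GENCODE M21 begins.
Tgfb1, chr7:25686752-25687001, + strand: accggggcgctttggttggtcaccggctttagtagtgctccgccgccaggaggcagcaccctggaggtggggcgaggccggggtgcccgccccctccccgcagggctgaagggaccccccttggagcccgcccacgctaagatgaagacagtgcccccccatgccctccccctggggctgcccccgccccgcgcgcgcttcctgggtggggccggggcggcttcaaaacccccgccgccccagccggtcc
Tgfb2, chr1:186705990-186706239, − strand: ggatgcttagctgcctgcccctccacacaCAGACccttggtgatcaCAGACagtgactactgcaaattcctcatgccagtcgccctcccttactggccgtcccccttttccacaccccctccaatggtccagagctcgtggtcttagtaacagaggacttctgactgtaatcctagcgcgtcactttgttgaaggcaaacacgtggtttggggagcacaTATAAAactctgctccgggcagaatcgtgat
Ltbp2, chr12:84876533-84876741, − strand: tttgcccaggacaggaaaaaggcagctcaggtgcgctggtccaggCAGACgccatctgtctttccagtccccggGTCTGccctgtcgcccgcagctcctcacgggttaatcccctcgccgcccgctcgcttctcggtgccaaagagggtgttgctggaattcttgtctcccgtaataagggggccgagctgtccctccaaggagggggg
Ltbp4, chr7:27337693-27337862, − strand: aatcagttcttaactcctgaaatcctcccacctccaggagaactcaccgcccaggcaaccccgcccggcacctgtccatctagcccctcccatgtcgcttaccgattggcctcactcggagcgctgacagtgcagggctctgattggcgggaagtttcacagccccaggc
The Tgfb2 sequence held 2 matches to CAGAC and 1 to TATAAA, whose first base lies at position -31 from the RefSeq start. The Ltbp2 sequence held 2 matches to CAGAC. The sequences of Tgfb1 and Ltbp4 held none of the 4 motifs, and the Ltbp4 sequence belongs to 1 of 3 starts that RefSeq lists for it. Over all 32851 windows of 250 bases before a RefSeq start, 42.2% held CAGAC, 11.7% held it at least 2 times, 12.4% held TATAAA, 6.75% held TGANTCA and 1.47% held a CArG box, so the matches are common ones and describe the letters only. The table held no window for Tgfb3 or Tgfbr3.

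Positions are on GRCm38 (GENCODE M21). Tgfb1 (ENSMUSG00000002603, chr7:25687002-25705077) and Ltbp4 (ENSMUSG00000040488, chr7:27305136-27337692) share chromosome 7, and Ltbp2 (ENSMUSG00000002020, chr12:84783212-84876532) and Tgfb3 (ENSMUSG00000021253, chr12:86056745-86079041) share chromosome 12. The others are Tgfb2 (ENSMUSG00000039239, chr1:186622792-186705989), Tgfbr1 (ENSMUSG00000007613, chr4:47353222-47414931), Tgfbr2 (ENSMUSG00000032440, chr9:116084293-116175360), Tgfbr3 (ENSMUSG00000029287, chr5:107106570-107289629), Ltbp1 (ENSMUSG00000001870, chr17:75005568-75392512) and Ltbp3 (ENSMUSG00000024940, chr19:5740904-5758532). Exons of Tgfb2, Tgfb3, Tgfbr3, Ltbp2 and Ltbp3 overlap another annotated gene, for Tgfbr3 on its own strand (Gm43422). How reads in such overlaps were assigned is not given in the sources used here, so these 5 genes carry that uncertainty. The antisense partners of Tgfb2, Tgfb3 and Ltbp2 were at 0 to 2.27 CPM (UMIs per 1000000) in smooth muscle and fibroblasts.

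The 3 files held 9412 to 11166 cell barcodes and 92474476 to 150954701 UMIs each, and 8374 to 10194 cells a library were kept. Libraries shared 29 to 34 barcodes in each pair. Smooth muscle cells numbered 2259, 4649 and 6385 (the order of libraries is SHF baseline, SHF AngII, CNC AngII), with median depths of 12441, 13336 and 13450 UMIs. Fibroblasts numbered 3939, 2640 and 842, with median depths of 9534, 15485.5 and 12379.5 UMIs. Macrophages numbered 8 and 13 in the SHF libraries, too few for a level of these 10 genes, and 1764 in CNC AngII (median 11108.5 UMIs). Cells that fell into 2 classes were 1, 2 and 8.

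Each class carried its own markers. The 6 smooth muscle markers (Acta2, Tagln, Myl9, Cnn1, Tpm2, Mylk) summed to 65967 to 76693 CPM (counts of a gene per 1000000 UMIs of the class) in smooth muscle, against 1551, 4750 and 4630 in the fibroblasts of SHF baseline, SHF AngII and CNC AngII and 499 in CNC AngII macrophages. The 6 fibroblast markers (Dcn, Lum, Col1a1, Col1a2, Dpt, Pi16) summed to 16926 to 31592 CPM in fibroblasts and 2642 to 3376 in smooth muscle. The 7 macrophage markers summed to 12868 CPM in CNC AngII macrophages, to 3.22 and 2.33 in the smooth muscle of the SHF libraries and to 143 in that of CNC AngII. Endothelial markers summed to at most 57.9 CPM in any smooth muscle or fibroblast sum, Schwann markers to at most 39.3, platelet markers to at most 31.8, mesothelial markers to at most 15.8, erythrocyte markers to at most 0.501 and lymphocyte markers to at most 0.267. In CNC AngII macrophages the platelet list reached 3044 CPM; it holds Pf4, which macrophages also express. Cardiomyocyte markers summed to 754, 482 and 54.9 CPM in the smooth muscle of SHF baseline, SHF AngII and CNC AngII. That list holds Tnnt2, which was detected in 69.3%, 57.9% and 22.1% of these smooth muscle cells.

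Levels below are CPM of the summed UMIs of a class in a library, a scale that does not depend on gene length because 1 end of each transcript is counted. Ratios are log2((CPM + 1)/(CPM + 1)), and a gene is said to rise or fall, or to lie past the fold, where the ratio is at least 1.5-fold in either direction and the mean of both levels is at least 10 CPM. Intervals are 95% intervals of counting error only (exact Poisson for a level, conditional binomial for a ratio, taken without the added 1 CPM). With 1 library per group there is no measure of the spread between mice or between library preparations, so no difference has a replicate check and no test was made.

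In the resting SHF library the ligands were split between the classes by isoform. Tgfb2, the isoform that depends most on TGFBR3 for binding, was 2.02-fold lower in fibroblasts than in smooth muscle, whereas Tgfb3 was 1.51-fold higher in fibroblasts. The receptors Tgfbr2 and Tgfbr3 were 3.69-fold and 3.798-fold higher in fibroblasts. Among the LTBPs, Ltbp1 was 2.16-fold lower in fibroblasts, and Ltbp2 and Ltbp4 were 2.72-fold and 1.96-fold higher. That made 5 of 10 genes higher in fibroblasts, where 24.6% of all genes tested were higher, and 2 of 10 lower, where 12% of all genes were lower. With scaling by the trimmed mean of M values (TMM), which moved every gene down by 0.25 on the log2 scale, 4 of the 10 were higher and 3 lower, since Tgfb3 dropped below the fold and Tgfbr1 passed it, where 17.1% of all genes were higher and 17.9% lower. Tgfb3 was short of the fold under 6 of the 12 alternative settings. With a stricter cell filter (2000 genes or more per cell, mitochondrial share no higher than 5%), which left 110 smooth muscle cells at baseline, Ltbp2 and Ltbp4 were also short of it, at log2 ratios of 0.47 and 0.39.

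**Figure D1:**
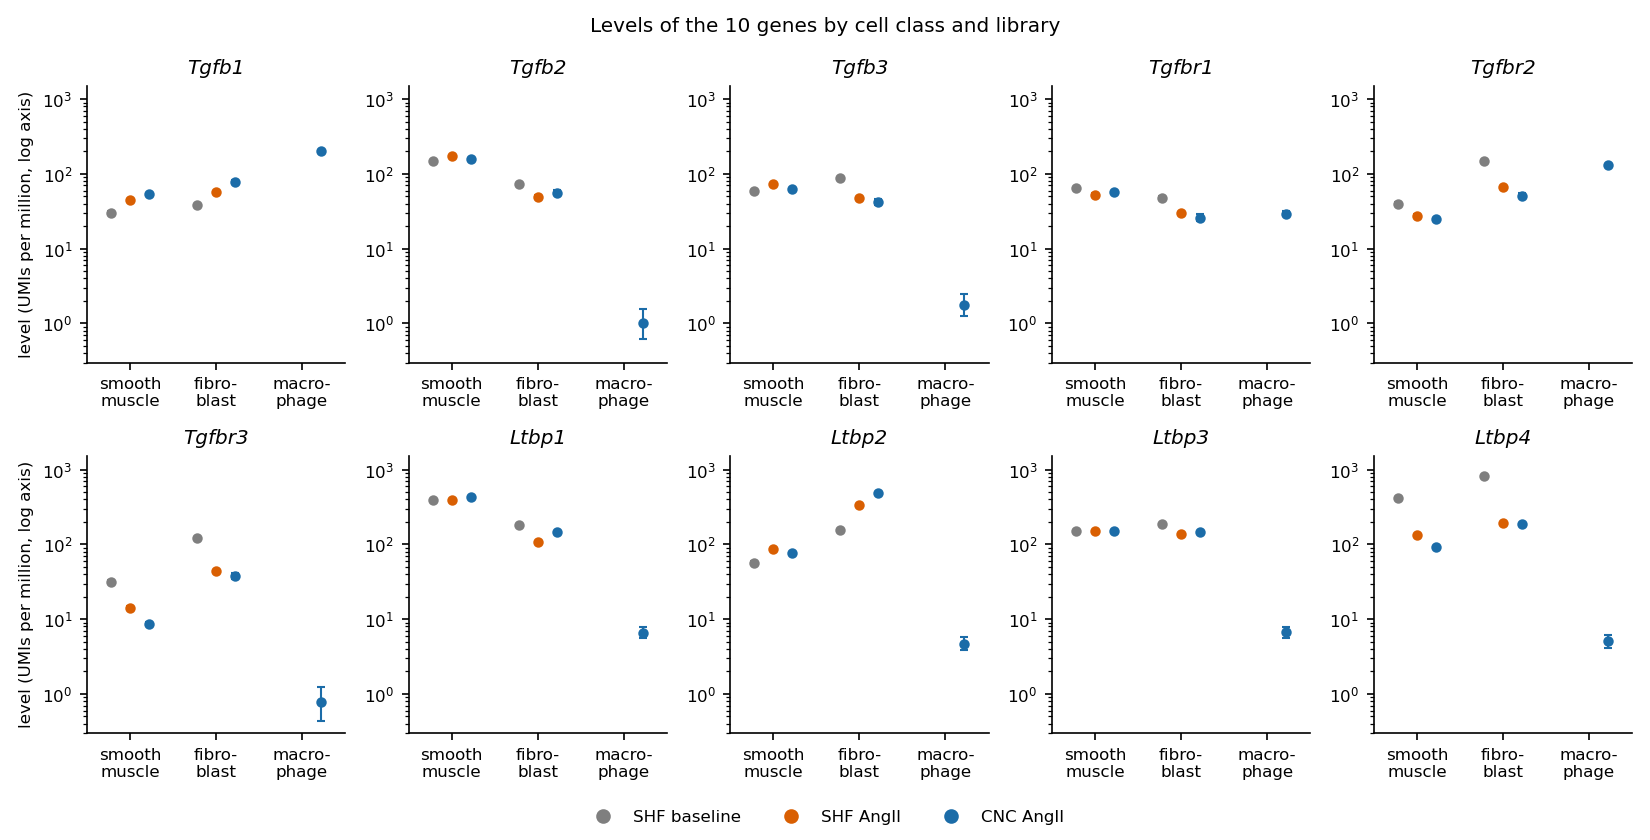
Levels of the 10 genes in CPM (log axis) in each class, with 1 point per library (grey SHF baseline, orange SHF AngII, blue CNC AngII) and 95% Poisson intervals as bars, where wider than the point. Macrophages are shown for CNC AngII alone; Tgfb1 (204 CPM) and Tgfbr2 (132 CPM) stand high there, and the other genes but Tgfbr1 (29.5 CPM) lie at or below 6.74 CPM.

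Tgfb1, the isoform most tied to inflammation and immune cells, stood at 29.98, 44.8 and 53.6 CPM in the smooth muscle of SHF baseline, SHF AngII and CNC AngII, and at 38.0, 57.5 and 78.1 CPM in their fibroblasts. It was therefore lowest at baseline in both classes, and higher in fibroblasts than in smooth muscle of the same library by less than 1.5-fold in all 3. In CNC AngII macrophages it reached 204 CPM (198 to 210), 3.76-fold above the smooth muscle of that library. After each cell was thinned to 3000 UMIs, 43.0% of CNC AngII macrophages had a UMI of Tgfb1, against 12.9% of smooth muscle cells and 17.2% of fibroblasts; 18, 3 and 21 shallower cells were left out. Before thinning, 84.0% of the macrophages had one. Macrophages were 17.3% of the kept CNC AngII cells and held 36.6% of the library's Tgfb1 UMIs. The few SHF macrophages held 7 UMIs of Tgfb1 at baseline and 26 under AngII.

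Tgfb2 stood at 147, 173 and 160 CPM in smooth muscle and at 72.5, 49.8 and 56.0 CPM in fibroblasts, in the same order of libraries. Each smooth muscle level was above each fibroblast level, and only the fibroblasts of CNC AngII and SHF AngII had overlapping intervals. Macrophages held 21 UMIs of it (1.01 CPM, 0.626 to 1.55). That is 0.631% of the smooth muscle level, inside the range of the 6 smooth muscle markers there (0.516 to 2.52%), and the source of these UMIs was not tested.

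Tgfb3 stood at 58.3, 72.4 and 63.5 CPM in smooth muscle and at 88.5, 46.9 and 42.5 CPM in fibroblasts. Its order between the classes turned: fibroblasts led at baseline, and smooth muscle led under AngII, 1.53-fold in SHF AngII and 1.48-fold, short of the fold, in CNC AngII. The fibroblast levels of SHF AngII and CNC AngII had overlapping intervals. In macrophages it was at 1.78 CPM, 2.81% of the smooth muscle level and just above the marker range.

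The make-up of the ligand pool followed from these levels. Tgfb2 gave 62.6%, 59.6% and 57.8% of all ligand UMIs in smooth muscle of SHF baseline, SHF AngII and CNC AngII. In fibroblasts Tgfb3 gave 44.5%, 30.4% and 24.1%, and Tgfb1 gave 19.1%, 37.3% and 44.2%. In CNC AngII macrophages 98.7% of ligand UMIs were Tgfb1 (exact binomial interval 98.3 to 99.0%).

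**Figure D2:**
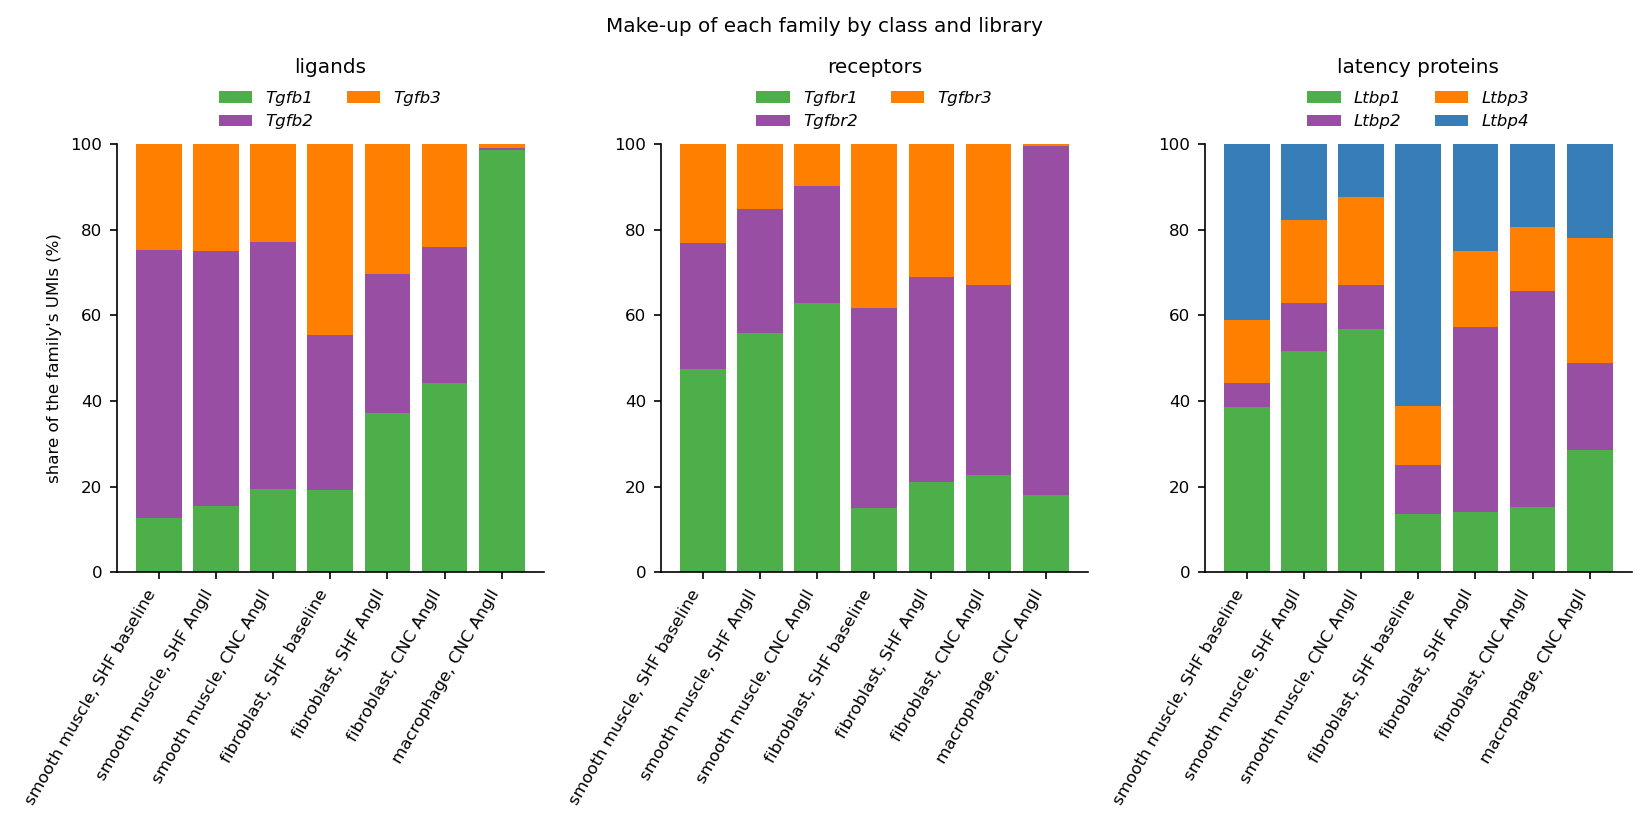
Share of each gene in the summed UMIs of its family (%), for each class and library with at least 50 cells. The Tgfb1 part of the ligand bars is 98.7% in macrophages, and the Ltbp4 part of the latency protein bars is 61.1% in SHF fibroblasts at baseline, 24.8% in those of SHF AngII and 19.3% in those of CNC AngII.

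Among the receptors, Tgfbr1, the signalling type I receptor kinase, stood at 64.8, 53.0 and 56.8 CPM in smooth muscle, at 48.1, 29.7 and 26.1 CPM in fibroblasts, and at 29.5 CPM in macrophages. It varied least of the 10 genes over these 7 sums (2.48-fold from lowest to highest), and the macrophage level could not be told from either AngII fibroblast level within counting error. Tgfbr2, the type II kinase that binds ligand first, stood at 40.0, 27.5 and 24.6 CPM in smooth muscle and at 150.3, 67.2 and 51.4 CPM in fibroblasts. In CNC AngII macrophages it reached 132 CPM (127 to 137), 5.20-fold above smooth muscle. Those macrophages held 44.0% of the library's Tgfbr2 UMIs, and 31.2% of them had a UMI after thinning, against 6.96% of smooth muscle cells.

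Tgfbr3 stood at 31.6, 14.2 and 8.70 CPM in smooth muscle and at 123, 43.6 and 37.9 CPM in fibroblasts, and no neighbours in this order had overlapping intervals. In macrophages 16 UMIs were counted (0.770 CPM), and its mean level with smooth muscle was below the minimum. All 3 receptors together gave 321 CPM in resting fibroblasts and 140.5 and 115 CPM in those of SHF AngII and CNC AngII, against 136, 94.8 and 90.1 CPM in smooth muscle.

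Of the LTBPs, Ltbp1, which links latent TGF-beta to the matrix, stood at 396, 397 and 425 CPM in smooth muscle and at 183, 107 and 146 CPM in fibroblasts. Smooth muscle was above fibroblasts in every library, and the SHF smooth muscle levels at baseline and under AngII could not be told apart by counting error. Ltbp3, which also binds all 3 ligands, stood at 150.5, 149.7 and 154 CPM in smooth muscle and at 185, 137 and 144 CPM in fibroblasts. It was the LTBP nearest to equal between these classes, with ratios of 0.30, -0.13 and -0.09 on the log2 scale. Ltbp2, the member that does not bind latent TGF-beta and associates with fibrillin and fibulin-5, stood at 56.9, 86.3 and 77.0 CPM in smooth muscle and at 156, 335 and 489 CPM in fibroblasts. Ltbp4, which organises elastin and binds latent TGF-beta 1 weakly, stood at 421, 135 and 92.9 CPM in smooth muscle and at 825, 191 and 186 CPM in fibroblasts. Every fibroblast level of Ltbp2 exceeded every smooth muscle level, whereas the resting smooth muscle level of Ltbp4 exceeded the AngII levels of fibroblasts.

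In the AngII libraries fibroblasts and smooth muscle were set against each other in the same way. In SHF AngII, 3 of 10 genes were higher in fibroblasts (Tgfbr2, Tgfbr3, Ltbp2; 22.6% of all genes) and 4 of 10 lower (Tgfb2, Tgfb3, Tgfbr1, Ltbp1; 15.3%). In CNC AngII, 4 of 10 were higher (the same 3 and Ltbp4; 21.8%) and 3 of 10 lower (Tgfb2, Tgfbr1, Ltbp1; 14.9%). The ratio of Ltbp2 between fibroblasts and smooth muscle went from 2.72-fold at baseline to 3.84-fold in SHF AngII and 6.28-fold in CNC AngII; the stricter filter took the baseline value to a log2 ratio of 0.47, short of the fold. With TMM scaling the counts were 3 higher and 4 lower in SHF AngII (16.5% and 21.6% of all genes) and 4 and 4 in CNC AngII (15.3% and 22.0%). In macrophages against smooth muscle of CNC AngII, 2 of the 9 genes that passed the minimum were higher (Tgfb1, Tgfbr2; 35% of all genes) and 7 lower (24.4%), and the counts were the same with TMM scaling (27.5% and 29.9% of all genes).

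The LTBPs in macrophages were low: 6.60 CPM for Ltbp1, 4.72 for Ltbp2, 6.74 for Ltbp3 and 5.06 for Ltbp4. These are 1.55%, 6.13%, 4.39% and 5.44% of the smooth muscle levels. Ltbp1 lay inside the range of the smooth muscle markers in macrophages (0.516 to 2.52%) and the others above it. The fibroblast markers in macrophages were at 0.696 to 1.23% of their fibroblast level. Against its own fibroblast level Ltbp2 was at 0.966%, inside that range. Ltbp1, Ltbp3 and Ltbp4 were above it, at 4.51%, 4.67% and 2.71%. The source of these UMIs was not tested. After thinning, 1.43 to 2.41% of macrophages had a UMI of an LTBP, against 25.5% of smooth muscle cells for Ltbp4 and 68.2% for Ltbp1. In fibroblasts Tgfb2 was at 28.8 to 49.2% of the smooth muscle level of the same library, where the smooth muscle markers were at 0.420 to 9.65%. The source of these fibroblast UMIs was not tested either. The 23 and 30 UMIs of Ltbp4 in SHF macrophages came from 2 and 4 cells, in libraries whose macrophage sums also held 10752 and 6214 CPM of fibroblast markers.

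Between the baseline and AngII libraries of SHF fibroblasts the receptors, Tgfb3, Ltbp1 and Ltbp4 fell and Ltbp2 rose. Of the 10, 6 fell (27.6% of all genes tested fell): Tgfb3, Tgfbr1, Tgfbr2, Tgfbr3, Ltbp1 and Ltbp4. The 1 that rose was Ltbp2 (10.5% of all genes rose). The median log2 ratio of the 10 was -0.72, beside -0.21 over all 7694 genes tested. In smooth muscle of the same libraries 2 of 10 fell, Tgfbr3 and Ltbp4 (15.6% of all genes), and 1 rose, Ltbp2 (8.76%); the median of the 10 was 0.00, beside -0.10 over 7001 genes.

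Ltbp4 moved most in both classes. From the levels given above it fell 4.29-fold in fibroblasts (log2 ratio -2.10, -2.14 to -2.07) and 3.09-fold in smooth muscle (-1.63, -1.68 to -1.60). After thinning, the share of fibroblasts with a UMI was 86.1% at baseline and 43.8% under AngII, and that of smooth muscle cells 68.4% and 34.3%. Ltbp4 gave 61.1% of all LTBP UMIs of fibroblasts at baseline and 24.8% under AngII, and 41.1% and 17.6% in smooth muscle. Its ratio was negative under all 12 alternative settings, from -2.20 to -1.79 in fibroblasts and from -2.43 to -1.43 in smooth muscle.

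Ltbp2 took the opposite course. In fibroblasts it rose 2.13-fold (log2 ratio 1.09, 1.05 to 1.14), and its share of LTBP UMIs was 11.6% at baseline and 43.4% under AngII. After thinning, 22.8% of resting fibroblasts and 43.1% of SHF AngII fibroblasts had a UMI. In smooth muscle the ratio was 1.51-fold (0.59), at the edge of the fold. That value was short of the fold under 6 of 12 settings, and with the stricter filter it was -0.19. The median mitochondrial share of the smooth muscle cells was 7.36% at baseline and 5.43% under AngII, and its part in the Ltbp2 value was not tested.

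The receptors were lower under AngII in both classes. In fibroblasts Tgfbr3 fell 2.78-fold, Tgfbr2 fell 2.22-fold and Tgfbr1 fell 1.60-fold. In smooth muscle Tgfbr3 fell 2.14-fold, while Tgfbr2 (-0.52 on the log2 scale) and Tgfbr1 (-0.28) stayed inside the fold. After thinning, 33.9% of resting and 19.2% of SHF AngII fibroblasts had a UMI of Tgfbr2, and 28.7% and 12.3% one of Tgfbr3.

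The ligands did not move together. Tgfb1 was 1.48-fold higher under AngII in smooth muscle (0.56, 0.47 to 0.69) and 1.499-fold higher in fibroblasts (0.58), in both classes just under the fold; in fibroblasts it passed under 9 of 12 settings. Tgfb3 fell 1.87-fold in fibroblasts, and in smooth muscle its ratio was 0.31. Tgfb2 had a ratio of -0.53 in fibroblasts and 0.23 in smooth muscle. Ltbp1 fell 1.70-fold in fibroblasts and was at 0.01 in smooth muscle, and Ltbp3 was at -0.44 and -0.01.

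**Figure D3:**
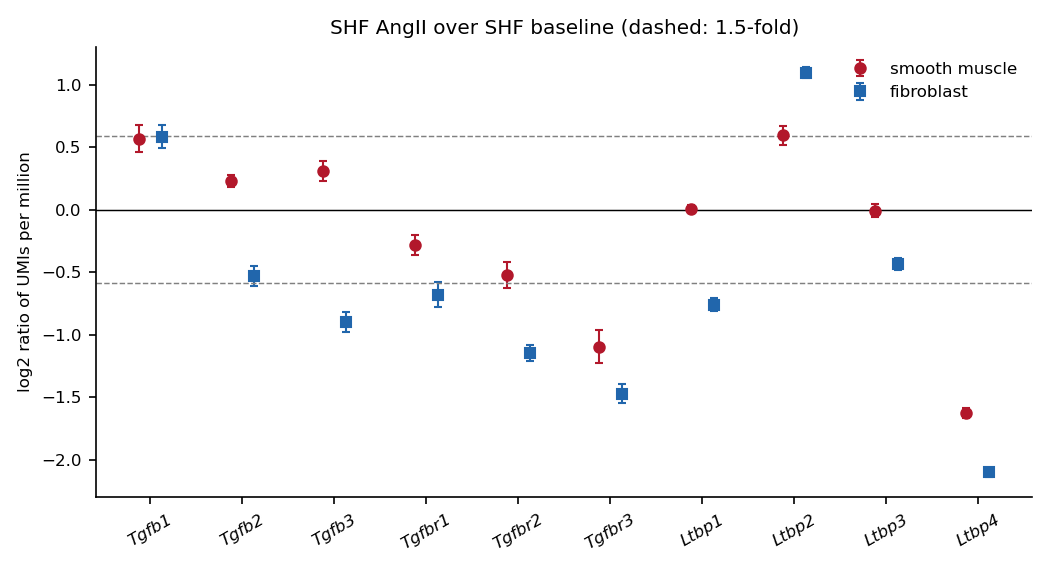
Log2 ratio of CPM, SHF AngII over SHF baseline, for each gene in smooth muscle (red circles) and fibroblasts (blue squares), with 95% counting intervals (shifted with the added 1 CPM) as bars and dashed lines at 1.5-fold. Ltbp4 is lowest in both classes (-1.63 and -2.10), Ltbp2 is highest in fibroblasts (1.09), and Tgfb2 and Tgfb3 lie on opposite sides of 0 in the 2 classes.

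The counts under AngII depend on how the libraries are scaled. TMM scaling moved every ratio up by 0.18 in smooth muscle and by 0.28 in fibroblasts. On that scale 2 of 10 genes rose and 2 fell in smooth muscle, as Tgfb1 joined Ltbp2, and 2 rose and 4 fell in fibroblasts, as Tgfb1 passed the fold and Tgfbr1 and Ltbp1 no longer did. Over all genes, 14.2% rose and 8.65% fell in smooth muscle on that scale, and 20.8% and 15.1% in fibroblasts. The baseline file also lists another set of genes under older names, so annotation, library preparation and AngII cannot be told apart in this comparison. Summed smooth muscle markers in fibroblasts went from 1551 to 4750 CPM between the same libraries, and median depth from 9534 to 15485.5 UMIs; their part in the fibroblast values was not tested.

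Between the lineages under AngII few of the 10 genes lay past the fold. Differences were small over all genes too, with a median absolute log2 ratio of 0.086 in smooth muscle and 0.092 in fibroblasts. Ranked by ratio among all genes tested in smooth muscle, Tgfbr3 lay at percentile 0.747, Ltbp4 at 1.20 and Tgfb1 at 94.7. The other members lay between percentiles 8.23 and 76.2. Of the 10, none was higher in CNC than in SHF smooth muscle (0.938% of all genes were) and 1 was lower, Tgfbr3 (1.01%), at 8.70 against 14.2 CPM. Its log2 ratio of -0.65 (-0.85 to -0.58) did not reach the fold with 10 CPM added in place of 1 (-0.37). Ltbp4 came next at -0.54 (-0.59 to -0.50), just short of the fold. Tgfb1 was at 0.25, and under the 12 alternative settings from 0.17 (stricter gates on the classes) to 0.29 (doublets kept). Macrophage markers in CNC smooth muscle were at 1.01 to 1.58% of their macrophage level, and their part in the Tgfb1 value was not tested. As a share of their fibroblast level, Dcn, Lum, Dpt and Pi16 were at 3.01, 5.56, 2.10 and 0.885% in SHF AngII smooth muscle. In CNC AngII smooth muscle they were at 0.436, 0.798, 0.622 and 0.398%. Col1a1 and Col1a2 went the other way (24.9 and 30.3% in SHF, 29.9 and 39.6% in CNC). The part of fibroblast RNA in the Tgfbr3 and Ltbp4 values was not tested. Cardiomyocyte markers, among them the Tnnt2 found in many of these smooth muscle cells, summed to 482 CPM in SHF AngII and 54.9 in CNC AngII. Their part in the lineage ratios was not tested.

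In fibroblasts none of the 10 was past the fold between the lineages, in either direction, where 1.24% of all genes were higher and 1.06% lower in CNC. Ltbp2 was nearest, at 489 against 335 CPM (0.54, 0.50 to 0.59), and passed it only among the 12 settings when cells were thinned to 3000 UMIs (0.61). Ltbp1 at 0.44 and Tgfb1 at 0.43 followed, and Tgfbr2 was lowest at -0.38 (-0.52 to -0.26). Ltbp4 was at -0.04, with an interval that spans 0 (-0.11 to 0.03). Ranked by ratio among all genes tested in fibroblasts, Ltbp2, Ltbp1 and Tgfb1 lay at percentiles 98.5, 98.0 and 97.9. Tgfbr2 lay at percentile 2.86, and the other members between 9.74 and 85.9.

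**Figure D4:**
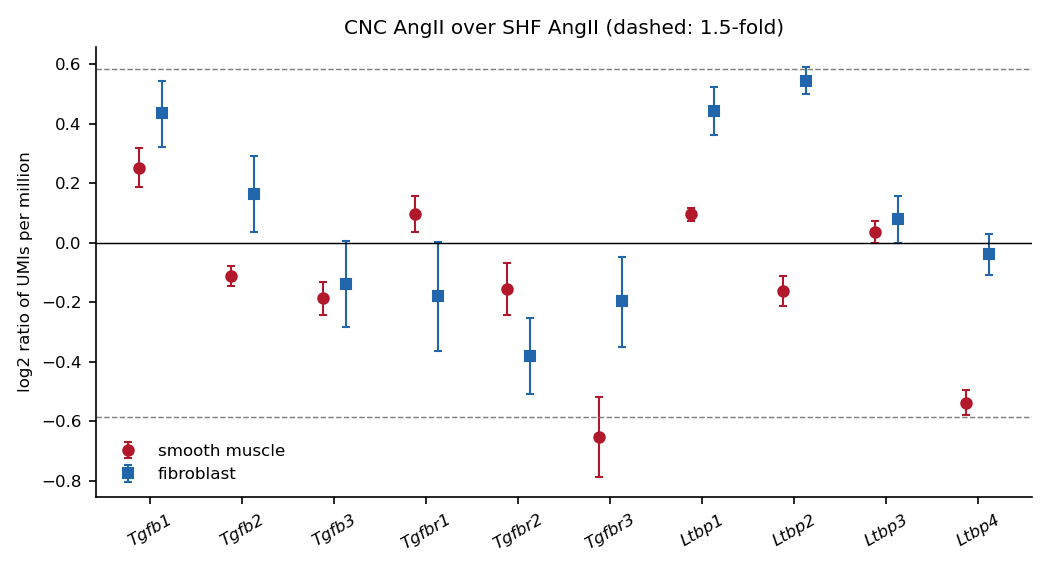
Log2 ratio of CPM, CNC AngII over SHF AngII, for each gene in smooth muscle (red circles) and fibroblasts (blue squares), with 95% counting intervals (shifted likewise) as bars and dashed lines at 1.5-fold. Only Tgfbr3 in smooth muscle (-0.65) lies outside the dashed lines; Ltbp2 in fibroblasts (0.54) and Ltbp4 in smooth muscle (-0.54) lie just inside.

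Within a class, cells with at least 1 UMI of a chosen marker were set against cells without it, in the same library. Among fibroblasts, Cthrc1, a marker of matrix-producing fibroblasts in injured tissue, was detected in 476 of 3939 SHF cells at baseline and 1646 of 2640 with AngII, and in 470 of 842 CNC cells. Ltbp4 was lower in the Cthrc1-positive cells of all 3 libraries: 641 against 859 CPM at baseline, 151 against 308 in SHF AngII and 141 against 280.3 in CNC AngII. Tgfbr2 was also lower in them under AngII (58.6 against 92.4 CPM in SHF, 45.2 against 64.3 in CNC) and not at baseline (175 against 146). Tgfb2 went the other way, at 54.0 against 37.5 CPM in SHF AngII and 65.4 against 36.3 in CNC AngII. Ltbp2 hardly separated them (323 against 368 CPM, and 491 against 483). By Pi16, a marker of adventitial fibroblasts, the ratios of the 10 genes were all inside the fold in the 3 libraries, the widest being Tgfbr3 at baseline (128 in positive against 85.4 CPM in negative cells, 0.58).

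In smooth muscle, cells with a UMI of Spp1, the gene of osteopontin, were 457 of 4649 in SHF AngII and 1358 of 6385 in CNC AngII. They had more Tgfb1, at 64.2 against 41.6 CPM in SHF AngII and 74.6 against 45.4 in CNC AngII. They had less Tgfb3, at 42.8 against 77.3 and 47.6 against 69.7 CPM, and less Ltbp4, at 96.6 against 142 and 70.6 against 102 CPM. Cells with Igfbp2, which encodes a binding protein of insulin-like growth factors, had more Tgfb2 in each library (185 against 133, 191 against 123 and 167 against 122 CPM), and at baseline more Ltbp2 (84.8 against 46.4). Under AngII they had less Ltbp4, at 120 against 179 and 88.3 against 118 CPM. Cells with Tnnt2, the cardiac troponin T gene, had more Ltbp4 in SHF AngII (163 against 99.8 CPM) and Tgfbr3 (17.1 against 10.5), whereas at baseline their Ltbp4 was at 427 against 405.

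In CNC AngII macrophages only Tgfb1, Tgfbr1 and Tgfbr2 had at least 200 UMIs. Among these, Tgfbr2 differed most between the cells with and without a marker. It was at 148 CPM in the 1349 cells with Lyve1, a marker of resident macrophages, and at 64.6 in the 415 without. It was at 68.2 CPM in the 455 cells with Ccr2, the chemokine receptor of recruited monocytes, and at 153 in the 1309 without. Tgfb1 was level across both divisions (206 against 197 and 203 against 205 CPM). Marker-positive cells were deeper than negative ones in most of these divisions (in SHF AngII fibroblasts 19231 against 10656.5 UMIs by Cthrc1), and the part of depth was not tested.

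**Figure D5:**
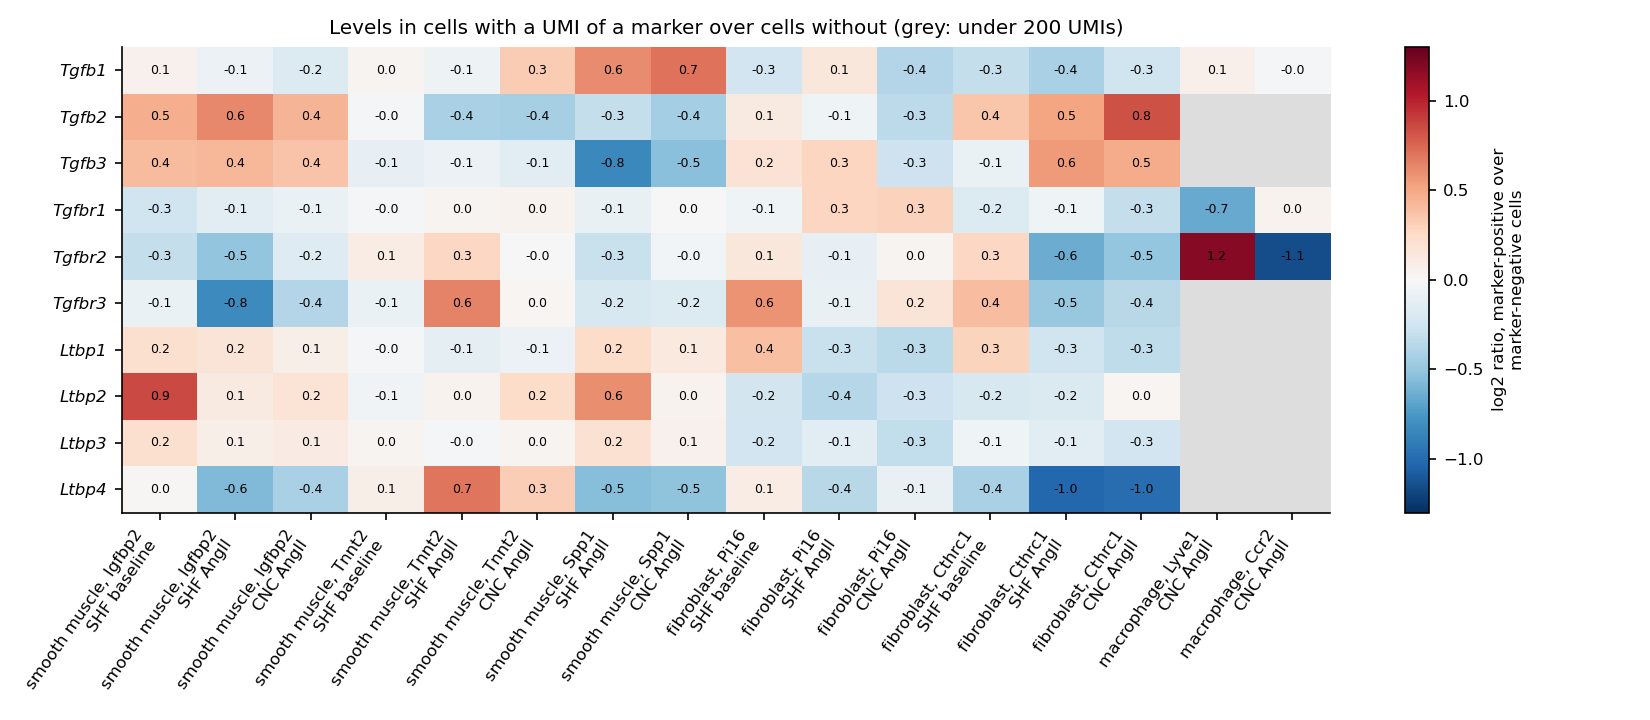
Log2 ratio of CPM in cells with a UMI of a marker over cells without it, for each gene (rows) and each class, marker and library (columns), with red for higher and blue for lower in positive cells and grey for under 200 UMIs. Ltbp4 by Cthrc1 is at -1.02 in SHF AngII and -0.99 in CNC AngII fibroblasts, and Tgfbr2 is at 1.19 by Lyve1 and -1.15 by Ccr2 in macrophages.

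The 48 other genes of the pathway were read in 3 lists. These were chosen with earlier results of these data known, so their counts and medians are a description and no independent support. Of the targets of TGF-beta signalling, 8 of 14 that passed the minimum rose under AngII in smooth muscle and 0 fell (8.76% of all genes rose and 15.6% fell), with a median log2 ratio of 0.68, beside -0.10 over all genes. They include the matrix genes Tnc (8.16 to 58.3 CPM, SHF baseline to SHF AngII) and Postn (931 to 2180), and Lox, the collagen and elastin crosslinker (194 to 369). Tnc was under 10 CPM at baseline and passed the minimum only through its AngII level. In fibroblasts, where 10.5% of all genes rose and 27.6% fell, 6 of 14 targets rose, among them Lox (246 to 1178 CPM) and Postn (123 to 374), and 2 fell, Tgfbi (239 to 70.7) and Cdkn1a (309 to 170). Acta2 and Tagln, which are also smooth muscle markers, were 2 of those 6.

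Of the genes of latency and activation, 2 of 13 rose in smooth muscle (Thbs1, the activator thrombospondin 1, and Lrrc32, which anchors latent TGF-beta on the cell surface) and 1 fell (Dcn). In fibroblasts 3 of 14 rose (Emilin1, Thbs1, Lrrc32) and 4 fell (Htra1, Dcn, Fmod, Aspn). Of all genes, 8.76% rose and 15.6% fell in smooth muscle, and 10.5% rose and 27.6% fell in fibroblasts. Lrrc32 went from 16.1 to 31.9 CPM in smooth muscle and from 36.8 to 74.2 in fibroblasts. Of the co-receptors, related receptors and intracellular parts none rose in either class. In smooth muscle 3 of 13 fell (Bambi, a decoy receptor, Smad6, an inhibitory SMAD, and Skil, a repressor of SMAD signalling), against 15.6% of all genes, and in fibroblasts 6 of 14 (Acvr1, Bambi, Smad3, Smurf2, Ski, Skil), against 27.6%. Smad3 went from 36.3 to 15.9 CPM in fibroblasts and Bambi from 133 to 42.4. With TMM scaling, applied to these lists after seeing the data, 2 genes of the last list rose in fibroblasts (Eng, Smad7) and 4 fell, without Acvr1 and Ski. On that scale 7 targets rose and 1 fell in fibroblasts, and 4 latency genes rose and 3 fell. In smooth muscle 9 targets rose and 0 fell, 3 latency genes rose and 1 fell, and in the last list 1 rose and 3 fell. Over all genes on that scale, 20.8% rose and 15.1% fell in fibroblasts, and 14.2% rose and 8.65% fell in smooth muscle.

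Between CNC and SHF under AngII few genes of these lists lay past the fold. Of all genes, 0.938% were higher and 1.01% lower in CNC smooth muscle, and 1.24% higher and 1.06% lower in CNC fibroblasts. In smooth muscle 1 of 14 targets was higher in CNC (Tnc, 106 against 58.3 CPM) and 1 lower (Comp, 9.01 against 19.5). Among the latency genes Dcn alone was lower, at 20.3 against 174 CPM, and it is also a fibroblast marker. In fibroblasts 1 of 15 targets was higher (Comp) and 1 lower (Tgfbi), and 1 of 14 latency genes was higher (Htra1). In macrophages against smooth muscle 35% of all genes were higher and 24.4% lower. There, 11 of 14 latency genes, 12 of 14 targets and 7 of 14 genes of the last list were lower, and 3, 1 and 3 higher. With TMM scaling 9 of the last list were lower and 2 higher, where 29.9% of all genes were lower and 27.5% higher. Lrrc32 was at 1.25 against 29.1 CPM and Htra1 at 10.01 against 745. Among those higher, Nrros, which anchors latent TGF-beta 1 on macrophages, was at 145 against 1.88 CPM, Furin, which cleaves the TGF-beta precursor, at 75.8 against 30.7, and Tgfbi at 496 against 8.30. The latency genes counted as higher also include Dcn, at 40.1 against 20.3 CPM. Dcn is a fibroblast marker, its macrophage level was 0.860% of its fibroblast level, and the source of these UMIs was not tested.

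The genes whose levels followed each member most closely were found by Pearson's r of log2(CPM + 1) over the 7 sums, among 7780 genes, as a description: the sums share libraries, and 1 of the 7 is the macrophages. Nearest to Tgfb1 was Atp5mpl (0.996), to Tgfb2 Fxyd1 (0.998), to Tgfb3 Arhgap35 (0.998), to Tgfbr1 Ube2g1 (0.994), to Tgfbr2 Pid1 (0.996) and to Tgfbr3 Lamc3 (0.998). Nearest to Ltbp1 was Adcy6 (0.999), to Ltbp2 Arl1 (0.995), to Ltbp3 Nckap1 (0.999) and to Ltbp4 Errfi1 (0.999).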

How the data were processed

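Single-cell RNA was captured with a 10x Chromium 3′ kit, per the labels' protocols, and the submitters' processing notes name the build mm10, fastp, STAR 2.5 and HTSeq 0.6.1. The deposited files hold the authors' UMI counts per gene and cell, not normalized. The SHF baseline file lists 18760 genes, partly under older names, and the AngII files 32285; 518 names were matched by synonym, 13 duplicates were left out and 18112 genes were common.

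A kept cell had 500 genes or more and a mitochondrial share no higher than 10%, and the 207, 192 and 279 doublets called by Scrublet (scanpy 1.11.5) in SHF baseline, SHF AngII and CNC AngII were left out. Classes were set by the UMI gates stated above. Cells of 2 classes were counted in each. UMIs were summed by class and library, divided by the UMIs of that sum and compared as log2 ratios with 1 CPM added, using numpy 2.4.6, scipy 1.17.1 and Python 3.11.15; figures were drawn with matplotlib 3.10.9. Sums of at least 50 cells entered the 8 comparisons. With 1 library per group no test was made. The calculation of the ratios and intervals was checked on Poisson counts simulated from a class sum with known changes put in. Such counts hold no spread between mice or library preparations, so that check does not bear on it.

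All 10 genes are named in every comparison; of 3 pathway lists any gene may be named, and of the genes of most similar pattern the nearest is named for each. The members, lists and markers were chosen with earlier results of these data known. Some genes of these lists are counted and not reported here by name.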

Additional observations from a re-analysis of the deposited data

Results flagged for a closer look

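For 2 genes the AngII ratio of SHF cells had opposite signs in smooth muscle and fibroblasts, each beyond its own counting interval. The log2 ratio in smooth muscle minus that in fibroblasts was 1.21 for Tgfb3 and 0.76 for Tgfb2. For 3 genes the ratio of CNC AngII over SHF AngII did the same. That difference was -0.71 for Ltbp2, which was lower in CNC smooth muscle (-0.16) and higher in CNC fibroblasts (0.54). It was -0.28 for Tgfb2 and 0.28 for Tgfbr1. With 1 library per group none of these differences was tested, and of the ratios behind them only that of Tgfb3 in fibroblasts lies past the fold. The opposite signs between the lineages were lost for Ltbp2 in thinned cells (0.04 in smooth muscle) and for Tgfbr1 with stricter gates (0.02 in fibroblasts).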

How the results depend on the processing

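The 80 ratios of single genes were recomputed under 12 other settings, giving 960 values, of which 702 stayed inside the main counting interval, 257 moved beyond it and 1 changed sign from a gene past the fold: Ltbp2 between AngII and baseline in smooth muscle, at -0.19 with the stricter cell filter. The number of genes past the fold under AngII in fibroblasts went from 7 to 4 at a fold of 2. Between the lineages in smooth muscle it went from 1 to 0 with 10 CPM added, at a fold of 2 and at a mean of at least 50 CPM, and in fibroblasts from 0 to 1 in thinned cells. Between fibroblasts and smooth muscle it went from 7 to 4 at baseline with the stricter filter, and from 7 to 4 in SHF AngII and 7 to 4 in CNC AngII at a mean of at least 50 CPM, where fewer genes enter. For macrophages that minimum gave 5 in place of 9. Keeping doublets, a looser filter, leaving out cells of 2 classes, stricter gates, means over cells, other totals, TMM and subtracting 5% of the library profile left each of these counts within 1.5 times. Where a setting does not remove genes or cells by its construction, the cause was not tested. No paired analysis was possible because each group has 1 library. Counting error limits the macrophage values below about 2 CPM, which rest on 16 to 37 UMIs.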

Other observations

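The share of a library's Tgfb1 and Tgfbr2 UMIs held by each class differed between libraries. Cell numbers and levels of the classes differed too, and their parts in these shares were not tested. In CNC AngII, smooth muscle cells held 44.6% of Tgfb1 UMIs and fibroblasts 7.60%, whereas in SHF AngII they held 41.5% and 34.4%, and in SHF baseline 27.6% and 44.9%. For Tgfbr2, the fibroblast share was 65.7% in resting SHF cells, 48.6% with AngII and 9.30% for CNC. Cells that fell into no class or into 2 held 27.3%, 23.8% and 11.2% of Tgfb1 UMIs in SHF baseline, SHF AngII and CNC AngII.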
